A study of Mus musculus with 17 samples.

Results

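The NR4A family of nuclear receptors has 3 members in the mouse, Nr4a1 (Nur77), Nr4a2 (Nurr1) and Nr4a3 (Nor1), and all 3 were listed in the data. They were 3 of 36293 genes in the bulk RNA-seq files and 3 of 37608 genes in the single-nucleus files. The family was chosen by measured values, namely the levels of its members in bulk nuclei of stressed and control mice, so those levels are described here without a test of the members. The stress response in single nuclei came from other mice and was tested.

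Chronic unpredictable stress (CUS) was given to C57BL/6 male mice (C57Bl/6J by the study's methods) for 12 days, with 3 different stressors a day, from 9 to 10 weeks of age. Control mice were housed in a separate room and gently handled every day, so room and condition cannot be told apart. Bulk RNA-seq measured nuclear RNA from punches of the medial prefrontal cortex (mPFC, by the study's methods, and cortex by the labels) of 4 control and 5 CUS mice at postnatal day 90. Single-nucleus RNA-seq (sNucDrop-seq, a droplet method that tags each RNA molecule with a unique molecular identifier, UMI) measured neocortex nuclei of 4 control and 4 CUS mice at postnatal day 80. The labels place tissue collection at 24 h after the last stressor. The study's methods give the same for the nuclei, but for bulk they give 24 h after the last behavioral test. The labels name no transgene or mutation.

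NR4A proteins are transcription factors whose activity is set mainly by how much of them is made, because their ligand pocket is filled by side chains. In neurons, calcium entry and cAMP signaling switch on their transcription within the first hour after activity, without new protein synthesis, largely through CREB bound to cAMP response elements (CREs). The proteins bind the NBRE sequence as monomers, and Nr4a1 and Nr4a2 also pair with retinoid X receptors. Nr4a2 is in addition a standing marker of claustrum neurons, of layer 6b neurons and of midbrain dopamine neurons.

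Nr4a1 lies on chr15:101254269-101274795 on the plus strand of mm10, Nr4a2 on chr2:57106830-57124003 on the minus strand, and Nr4a3 on chr4:48045153-48086447 on the plus strand. Introns made up 82.91% of the span of Nr4a1, 76.37% of Nr4a2 and 85.5% of Nr4a3, and nuclear RNA holds unspliced transcripts. Intronic reads were counted for the nuclei, and whether they were for bulk is not given in the sources used here. No other annotated gene overlapped any of the 3, so no overlapping or antisense gene shares their reads.

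The sequence just upstream of each RefSeq start site (GRCm38.p6) is shown because CRE half-sites there are the textbook route of activity to these genes. Each runs 5′ to 3′ on the strand of its gene, and capitals mark the CRE half-site, TGACG or, on the other strand, CGTCA. The Nr4a1 stretch is chr15:101266596-101266845 on the plus strand, inside the span of the gene and between annotated exons. For Nr4a2 it is chr2:57124004-57124253 on the minus strand, upstream of the gene. Only 98 bases are shown for Nr4a3, chr4:48045055-48045152 on the plus strand, because the other 152 upstream bases lie in an exon of a longer transcript.
Nr4a1: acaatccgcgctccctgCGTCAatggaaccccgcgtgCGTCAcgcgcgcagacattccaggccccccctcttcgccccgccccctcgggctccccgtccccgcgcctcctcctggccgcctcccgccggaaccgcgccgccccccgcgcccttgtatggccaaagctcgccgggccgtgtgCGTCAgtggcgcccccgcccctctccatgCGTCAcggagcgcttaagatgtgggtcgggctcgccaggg
Nr4a2: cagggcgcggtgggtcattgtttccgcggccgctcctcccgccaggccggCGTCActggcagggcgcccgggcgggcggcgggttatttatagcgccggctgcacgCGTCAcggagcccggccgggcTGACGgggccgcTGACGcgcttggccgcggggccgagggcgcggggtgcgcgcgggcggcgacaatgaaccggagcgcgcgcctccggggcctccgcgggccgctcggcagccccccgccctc
Nr4a3: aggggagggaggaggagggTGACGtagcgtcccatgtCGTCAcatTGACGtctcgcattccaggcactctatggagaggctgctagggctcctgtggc

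The search window ran from 250 bases before to 50 bases after the start. Each member had 4 half-sites in that window, and for Nr4a3 the 4th lies at positions -147 to -143, in the stretch not shown. Of 27025 RefSeq promoter windows of the same length, 21.02% held at least 1 half-site and 0.252% held 4 or more. The half-site contains a CG dinucleotide, and GC content of the printed stretches was 74.4% for Nr4a1, 80.0% for Nr4a2 and 61.2% for Nr4a3. The full palindromic CRE, TGACGTCA, which contains the half-site on both strands, was in 1.876% of the windows and in none of the members. The NBRE, AAAGGTCA on either strand, was in 1.458% of the windows and in none of the members. These matches describe letters in a window and were not tied to any measured binding.

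The bulk libraries held 26188825 to 30525015 reads on genes each. Marker genes of cortical excitatory layers, interneurons and glia were present in every bulk library, and choroid plexus markers were near 0, at 2.12 to 6.12 CPM (counts scaled to the library size) in sum. Markers of striatal projection neurons were also present, at 683 to 1181 CPM in controls and 1167 to 1409 CPM in CUS mice. The 8 nucleus libraries gave 27112 nuclei after filtering, with 4853905 to 12748996 UMIs per mouse and a median of 1829 to 2462 UMIs per nucleus. A few barcodes (50 sequences) occurred in more than 1 mouse, and 36 kept nuclei had a barcode that was also kept in another mouse. The nucleus libraries fell into 2 sets. Those of control mice 2 and 3 and CUS mice 3 and 4 listed a barcode made of G alone, with 7092 to 10137 UMIs, which the filter on genes removed, and the other 4 libraries did not list it. In deviations from the group means, the correlations between control and CUS mice were 0.269 to 0.541 within the first set, 0.0594 to 0.524 within the second and at most 0.046 between sets. The study's methods name 2 batches of nuclei with 2 control and 2 CUS mice each, and the labels do not say which mice, so whether these sets are those batches is not known here.

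Nr4a2 showed the widest gap between the groups in bulk mPFC nuclei, relative to its level. Controls had 7.97, 10.9, 6.16 and 9.01 CPM (normalized by the trimmed mean of M values), and CUS mice had 2.10, 3.39, 2.69, 2.52 and 1.93 CPM. Every CUS mouse lay below every control mouse. The mean was 8.50 ± 1.96 CPM (SD, n = 4) in controls and 2.53 ± 0.574 CPM (SD, n = 5) in CUS mice, which is 29.7% of the control level. The raw reads behind these values were 165 to 322 per control library and 56 to 86 per CUS library.

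For Nr4a3, too, the groups lay apart. Control mice had 82.7, 88.7, 48.4 and 48.7 CPM and CUS mice 28.0, 35.6, 31.7, 30.6 and 21.4 CPM. The controls fell into a higher and a lower pair, and even the lower pair stayed above the highest CUS mouse. The mean was 67.1 ± 21.6 CPM in controls and 29.5 ± 5.27 CPM in CUS mice, or 43.9% of control. Summed striatal markers split the controls into the same pairs, at 683 and 801 CPM in mice 1 and 2 against 1060 and 1181 CPM in mice 3 and 4. Markers of mature oligodendrocytes did so too, at 295 and 458 against 696 and 679 CPM. Whether tissue content bears on Nr4a3 was not tested.

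Nr4a1 differed least between the groups. Levels were 73.8, 73.1, 70.6 and 57.9 CPM in controls against 65.3, 61.6, 57.5, 56.9 and 64.2 CPM in CUS mice. The groups overlapped because the lowest control lay within the CUS range. The mean was 68.9 ± 7.45 CPM in controls and 61.1 ± 3.82 CPM in CUS mice, or 88.7% of control.

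**Figure D1:**
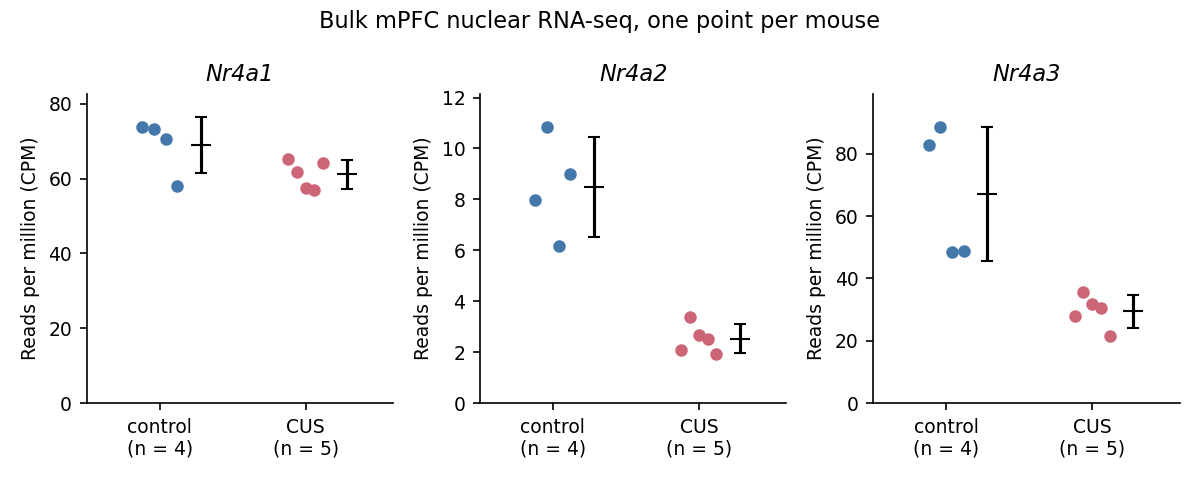
Level of each member in bulk mPFC nuclei in CPM, with 1 point per mouse (4 control, 5 CUS) and the mean ± SD of each group. The 5 CUS mice sit below all 4 controls for Nr4a2 and Nr4a3, and the groups overlap for Nr4a1.

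In edgeR's quasi-likelihood fit over all genes, the log2 fold change (CUS over control) was -1.76 (SE 0.18) for Nr4a2, -1.19 (SE 0.19) for Nr4a3 and -0.17 (SE 0.076) for Nr4a1. Each SE here and below is the absolute log2 fold change divided by the square root of the fit's F statistic. For the members in bulk it restates that statistic and is not read as a test. Over all 18394 tested genes, 606 (3.29%) were called at a false discovery rate (FDR) under 0.05, of which 392 (2.13%) were lower in CUS mice, and the groups did not overlap for 8.76%. Because this contrast chose the members, no call is given for them and nothing is read from their values against these counts. In bulk tissue, fewer cells of a type and less RNA per cell cannot be told apart.

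Scaled to gene length, the order of the members was Nr4a1, Nr4a3, Nr4a2 in both groups. In CPM per kb of gene span, controls had 3.35 ± 0.363 for Nr4a1, 1.63 ± 0.523 for Nr4a3 and 0.495 ± 0.114 for Nr4a2. CUS mice had 2.98 ± 0.186, 0.713 ± 0.128 and 0.147 ± 0.0334 in the same order. Within a group, no mouse of one member overlapped any mouse of another on this scale.

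Levels of some other cell types' markers also differed between the bulk groups. Summed OPC markers were 497 to 604 CPM in controls and 390 to 464 CPM in CUS mice, the only sum with no overlap. Summed striatal markers were higher in CUS mice, at 136% of the control mean, and summed markers of mature oligodendrocytes were at 66.8% of it. The groups overlapped for both, and the lowest control, at 295 CPM of oligodendrocyte markers, lay below every CUS mouse (309 to 392 CPM). Choroid plexus markers aside, the other sums ran from 84.7% of the control mean for layer 4 to 111% for layer 6, with astrocyte markers at 89.8%. The 7 claustrum markers other than Nr4a2 summed to 358 ± 29.4 CPM in controls and 367 ± 26.2 CPM in CUS mice, with ranges of 316 to 385 and 343 to 410 that overlapped. The largest parts of this sum were Synpr, at 138 CPM in controls and 158 CPM in CUS mice, and Gng2, at 125 and 113 CPM. Of the 7 markers, 5 had a log2 fold change below 0, so the sum does not show the direction of most of them. Synpr was also on the list of Vip interneuron markers, and Rxfp1 also led the nuclei with layer 6b markers. The sum is therefore not a measure of claustrum content. Layer 6b markers summed to 98.4 to 127 CPM in controls and 101 to 110 CPM in CUS mice. The part of these differences in the levels of the members was not tested.

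Which classes hold RNA of the members was read from the nuclei, which were clustered and named from marker genes. A class is called by a cell type with "-like" where its markers led it and otherwise by its leading gene. Of 35 classes, 26 held more than 200 nuclei and were compared. Nr4a2 was among the genes used for clustering, and the levels by class are a description with no test.

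Nr4a2 had a sharply restricted source. Claustrum-like nuclei, led by Nr4a2, Oprk1, Col24a1, Col11a1, Gnb4, B3gat2, Rgs12, Rxfp1, Fap and Ntng2, held 1123 ± 121 CPM of Nr4a2 (SD, n = 8 mice). They were 384 nuclei, or 1.42% of all, and gave 46.5% of the Nr4a2 UMIs, with 39.1% to 67.1% per mouse. A UMI of Nr4a2 was seen in 87.2% of them (exact 95% binomial interval 83.5% to 90.4%, counting error only), with a median of 3 and a maximum of 25 UMIs per nucleus. When Nr4a2 was left out of the genes used for clustering, the class held 383 nuclei, all of them among these 384.

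Ex_L6b-like nuclei, the deepest cortical layer, came next with 257 ± 52.8 CPM of Nr4a2. They were 2.21% of nuclei and gave 15.7% of the Nr4a2 UMIs. The ranges of the claustrum-like and Ex_L6b-like classes over the 8 mice did not overlap, whereas those of every later pair of neighbors in the order did. The third was the Angpt1-led excitatory cluster, at 113 ± 75.1 CPM and from 0 to 223 CPM between mice. Within each of the 8 mice it was below Ex_L6b-like nuclei. The Galnt14-led excitatory cluster followed with 52.1 ± 16.3 CPM, and the Cpne7-led one had 44.0 ± 10.7 CPM.

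Among most other classes Nr4a2 was low. Non-neuronal nuclei, with a median of 1206.5 UMIs against 2800.5 in claustrum-like nuclei, had an Nr4a2 UMI in 1.89% of nuclei and 17.1 ± 5.94 CPM in controls and 13.5 ± 6.23 CPM in CUS mice. Nr4a2 was at 9.64 CPM in Ex_L2/3-like nuclei, 8.54 CPM in Ex_L4-like nuclei and 4.49 CPM in striatal-like nuclei. A UMI was seen in 2.63% of Ex_L2/3-like nuclei (median of 2514 UMIs), 1.84% of Ex_L4-like nuclei and 0.971% of striatal-like nuclei. Free RNA was not measured, so these low levels are not read as expression.

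Nr4a1 was spread over the excitatory layers. Ex_L5-like nuclei had 90.1 ± 18.7 CPM (SD, n = 8 mice) and were the highest class with all mice pooled, at 89.3 CPM. The Angpt1-led cluster had a mean of 91.8 ± 51.8 CPM, which rests on 49 UMIs and ran from 8.86 to 177 CPM between mice, and 67.8 CPM pooled. Ex_L6-like nuclei had 76.9 ± 18.7 CPM, Ex_L4-like nuclei 75.5 ± 22.0 CPM and Ex_L2/3-like nuclei 58.0 ± 24.7 CPM. Claustrum-like nuclei were ordinary in this respect, at 49.5 ± 22.2 CPM, as were Ex_L6b-like nuclei, at 50.1 ± 23.7 CPM. All neighbors in the order overlapped between mice.

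Nr4a3 levels rested on 1023 UMIs in all, beside 3449 of Nr4a1 and 2909 of Nr4a2. The highest mean was in the Cpne7-led excitatory cluster, at 37.0 ± 9.00 CPM with a UMI in 10.1% of its nuclei. An excitatory Tshz2-led cluster came next with 34.8 ± 13.1 CPM, on 31 UMIs. Claustrum-like nuclei had 31.4 ± 24.5 CPM, from 9.89 to 81.3 CPM between mice, which rested on 38 UMIs. The Galnt14-led excitatory cluster had 28.5 ± 15.1 CPM, on 126 UMIs. The inhibitory Ndnf-led cluster had 23.2 ± 15.6 CPM, on 21 UMIs. Beside it, Ex_L6-like nuclei had 18.7 ± 6.71 CPM and Ex_L4-like nuclei 9.21 ± 4.61 CPM. All neighbors in the order of classes overlapped for this member too. Free RNA was not measured, so low levels of Nr4a3 are not read as expression either.

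**Figure D2:**
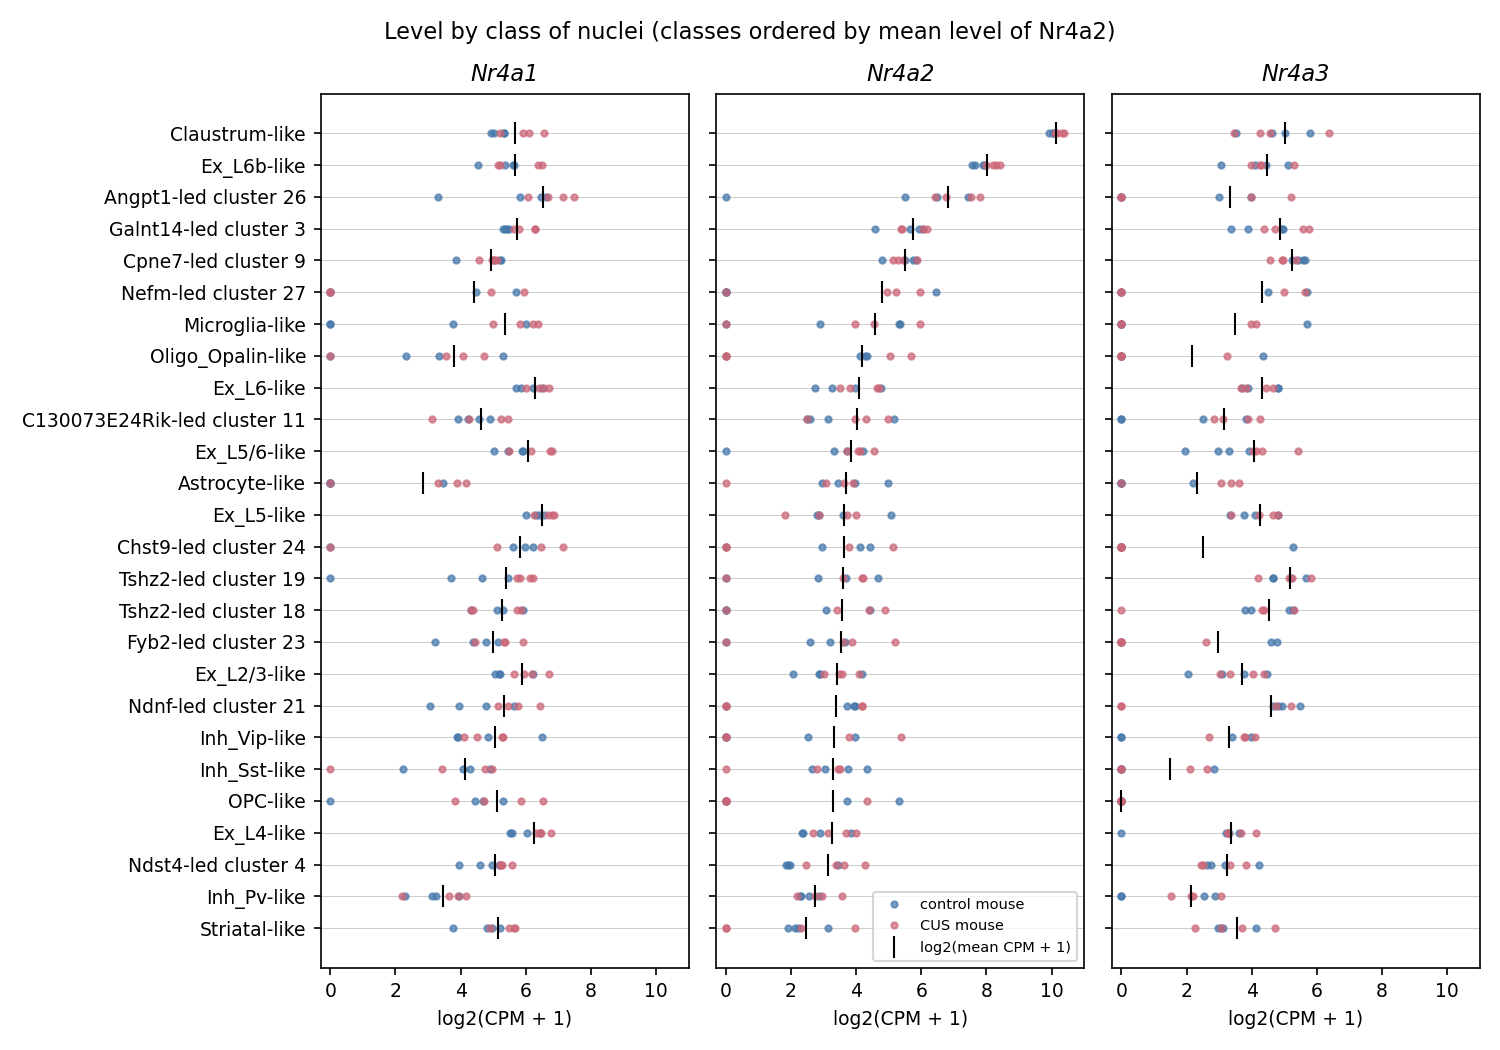
Level of each member by class of nuclei, as log2(CPM + 1), with 1 point per mouse (4 control, 4 CUS) and a tick at the mean level of the 8 mice. Nr4a2 stands at 1123 CPM in claustrum-like and 257 CPM in Ex_L6b-like nuclei above all other classes, whereas Nr4a1 and Nr4a3 are spread over many classes.

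The UMIs of Nr4a2 came from other classes than most of those of Nr4a1 and Nr4a3. Excitatory nuclei other than claustrum-like and Ex_L6b-like ones gave 83.1% of Nr4a1 UMIs, 78.8% of Nr4a3 UMIs and 31.6% of Nr4a2 UMIs, while they held 69.4% of all UMIs. Claustrum-like nuclei gave 1.59% of Nr4a1 UMIs and 3.71% of Nr4a3 UMIs, beside 1.78% of all UMIs. Inhibitory nuclei, with 19.4% of all UMIs, gave 9.86% of Nr4a1, 3.47% of Nr4a2 and 10.2% of Nr4a3 UMIs. They include the striatal-like nuclei, which held 6.17% of all UMIs and gave 4.06%, 0.688% and 4.11% of the members' UMIs in that order.

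**Figure D3:**
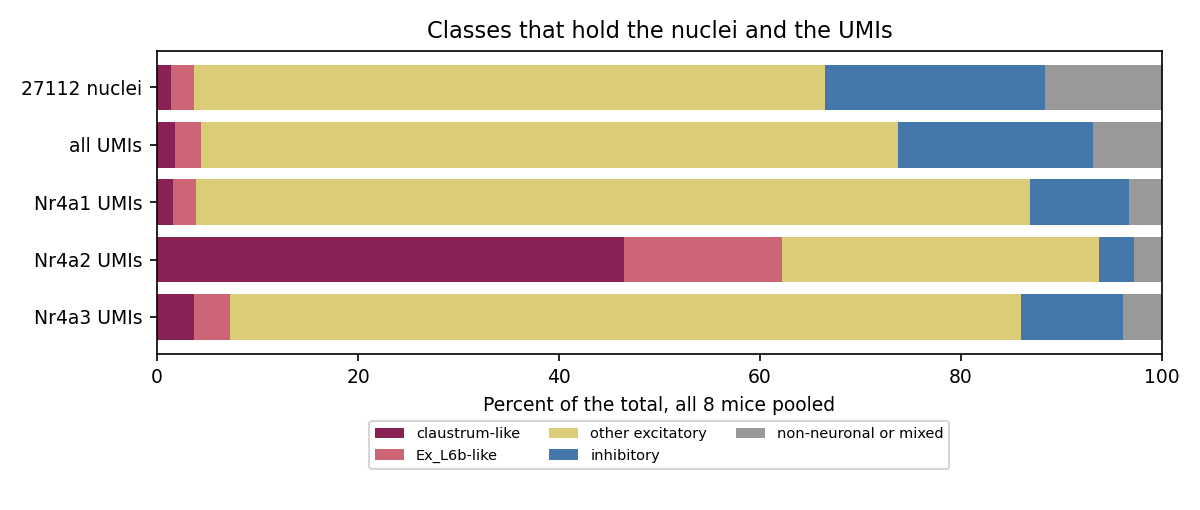
Share in percent of nuclei, of all UMIs and of each member's UMIs that came from claustrum-like, Ex_L6b-like, other excitatory, inhibitory (striatal-like included) and non-neuronal or mixed nuclei, over 8 mice. Claustrum-like nuclei are 1.42% of nuclei and give 46.5% of the Nr4a2 UMIs.

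Few nuclei held UMIs of more than 1 member. At a median of 2041 UMIs per nucleus, a UMI was seen in 10.3% of nuclei for Nr4a1, 5.42% for Nr4a2 and 3.26% for Nr4a3. Members present together can thus be missed, and whether they share nuclei was not tested. Any member was seen in 16.9% of all nuclei, at least 2 members in 525 nuclei and all 3 in 40 nuclei. In claustrum-like nuclei 88.0% held a member and 66 of 384 held at least 2. Across the 26 classes, the level profile of Nr4a1 correlated with that of Nr4a2 at a Pearson r of 0.21 and with that of Nr4a3 at 0.46, and Nr4a2 with Nr4a3 at 0.41. These are descriptions over classes that share mice and libraries.

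Among 5065 genes, the profiles most like that of Nr4a2 over the 26 classes were those of Pls3 (r = 0.78), Rxfp1 (0.72), Gpd2 (0.68), Rap2a (0.64) and Synj1 (0.63). Rxfp1, the relaxin receptor, is itself one of the claustrum markers. For Nr4a1 they were Pcsk2 (0.81), Chrm1 (0.80), Acvr1b (0.80), Plk2 (0.80) and Kcnh3 (0.80). Nr4a3 was closest to Rock2 (0.77), Rnps1 (0.76), Socs7 (0.75), Uchl1 (0.74) and Diras2 (0.73). Rock2, Uchl1 and Rap2a were highest in the Nefm-led cluster, a class of 208 non-neuronal or mixed nuclei with a median of 1020.5 UMIs. Nr4a3 rests on 7 UMIs there, with 4 mice at 0, so these correlations lean on uncertain levels.

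Summed over all nuclei of a mouse, no member was called in CUS against control mice. Nr4a1 had 33.2, 31.8, 52.9 and 39.8 CPM in controls and 73.7, 59.4, 48.7 and 60.7 CPM in CUS mice. Only the lowest CUS mouse and the highest control overlapped. The mean was 39.4 ± 9.67 CPM (SD, n = 4) in controls and 60.6 ± 10.2 CPM (SD, n = 4) in CUS mice, a ratio of 1.54. In the edgeR fit the log2 fold change was 0.62 (SE 0.17, FDR 0.573), and the threshold of 0.2 was not passed. It was passed by edgeR's likelihood ratio test (FDR 0.165) and by DESeq2 (FDR 0.135), and the exact permutation test over mice gave p = 0.0571 (0.171 adjusted over the 3 members). With the library set as a term, the log2 fold change was 0.60 (FDR 0.323), and with the likelihood ratio test of the study's methods as well it was 0.61 (FDR 0.0682). These settings that Nr4a1 passed called 15, 23 and 213 genes in all, in the order given. It also passed with no filter on low counts (FDR 0.00459), which called 312 genes, and without CUS mouse 2 (FDR 0.114), which called 866. Mean levels in control and CUS mice were 42.4 and 54.7 CPM in the set with the G barcode, where the groups overlapped, and 36.5 and 66.6 CPM in the other set, where they did not.

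Nr4a2 over all nuclei was 32.8, 41.6, 39.5 and 43.9 CPM in controls and 49.0, 38.1, 36.8 and 52.2 CPM in CUS mice. The groups overlapped. The log2 fold change was 0.16 (SE 0.13, FDR 0.67), and within the sets control and CUS means were 40.6 and 44.5 CPM, and 38.4 and 43.6 CPM. Nr4a3 had 8.89, 12.0, 19.6 and 13.4 CPM in controls and 14.4, 20.8, 10.4 and 16.7 CPM in CUS mice, which also overlapped. It fell under the filter on low counts, and with the members kept in the fit its log2 fold change was 0.18 (SE 0.25, FDR 0.805). The direction of Nr4a3 differed between the sets, from 15.8 in control to 13.5 CPM in CUS mice with the G barcode and from 11.1 to 17.6 CPM without it. Over all nuclei 1 of 5065 genes (0.0197%) was called at an FDR under 0.2.

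**Figure D4:**
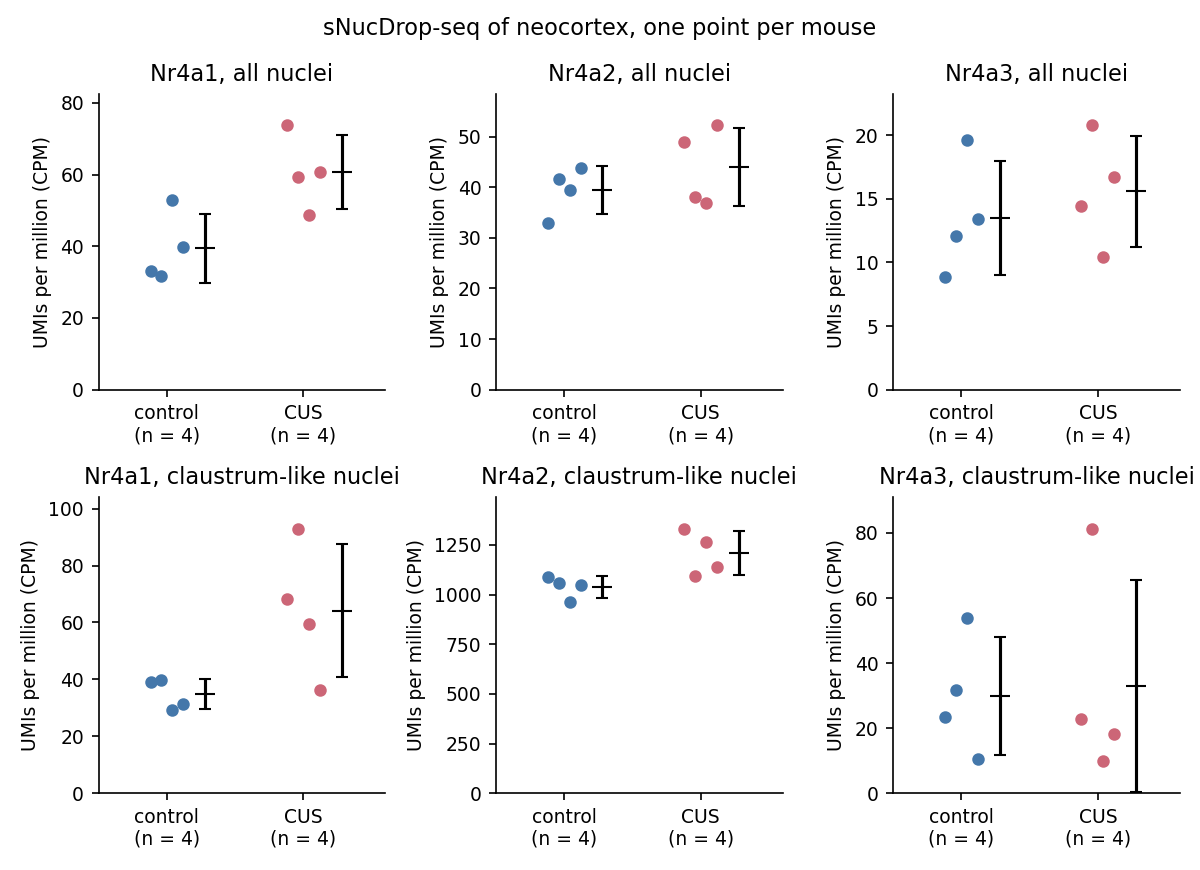
Level of each member in CPM in all nuclei and in claustrum-like nuclei, with 1 point per mouse (4 control, 4 CUS) and the mean ± SD of each group. Nr4a1 averages 39.4 CPM in control and 60.6 CPM in CUS mice over all nuclei with some overlap, and Nr4a2 in claustrum-like nuclei is between 962 and 1332 CPM in every mouse.

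Set side by side, the log2 fold change of Nr4a2 was -1.76 (SE 0.18) in bulk mPFC nuclei and 0.16 (SE 0.13) in neocortex nuclei. That of Nr4a3 was -1.19 (SE 0.19) against 0.18 (SE 0.25), and that of Nr4a1 was -0.17 (SE 0.076) against 0.62 (SE 0.17). The assays differed in mice, age, dissection, method and, by the study's methods, collection time, which for bulk was set by the last behavioral test, and the difference between them was not tested.

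**Figure D5:**
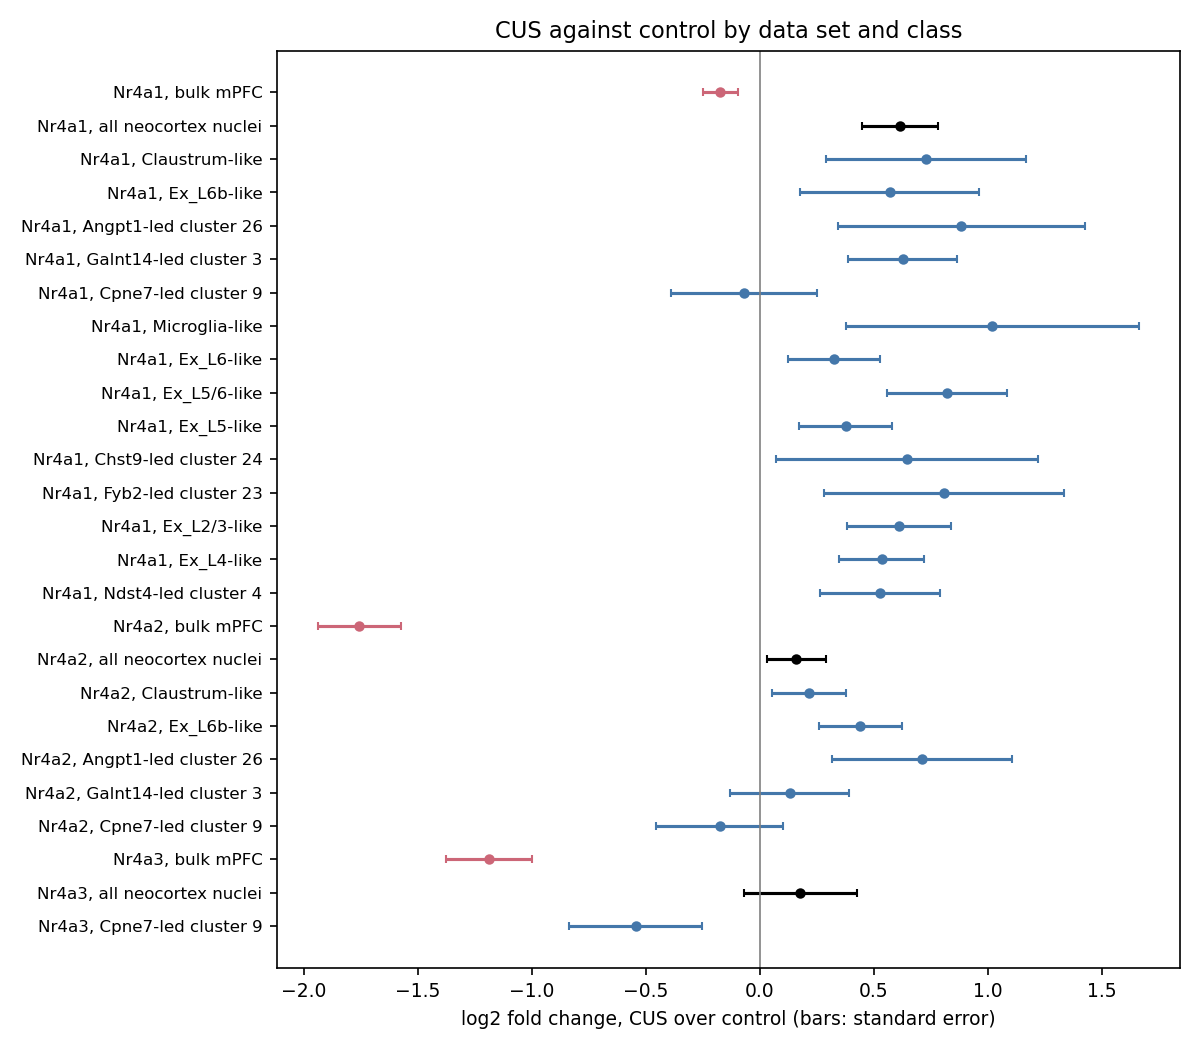
Log2 fold change (CUS over control) of each member with its SE in bulk mPFC nuclei, in all neocortex nuclei and in the classes where it was tested (red, black and blue points). The SE is derived from the F statistic of the fit. The value of Nr4a3 over all nuclei is from the fit with the members kept. The bulk values of Nr4a2 (-1.76) and Nr4a3 (-1.19) lie below 0, and for Nr4a1 the 10 classes that passed the count filter in both groups lie between 0.32 and 0.88.

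Within classes, 20 pairs of a member and a class passed the count filter. At an FDR under 0.2, edgeR's quasi-likelihood fit called 0 of them, while 5 had an unadjusted p under 0.05, as did 5.88% of all gene and class pairs. Over all genes in the 26 classes, 117 of 122476 pairs were called (0.0955%). Nr4a1 was tested in 14 classes. In 10 of them it passed the count filter at the rate of control and of CUS mice alike, and there its log2 fold change ran from 0.32 to 0.88. In the other 4 it passed through 1 group only, so the direction was partly set by the filter. These were microglia-like nuclei (1.02), the Fyb2-led (0.81) and Ndst4-led (0.53) clusters, which passed through CUS mice, and the Cpne7-led cluster, which passed through controls. Nr4a1 was at -0.068 (SE 0.32) in the Cpne7-led cluster, where it did not pass the count filter when clustering was run with multithreaded linear algebra. The lowest FDR was 0.319, in Ex_L2/3-like nuclei (0.61, SE 0.23). Its log2 fold change was 0.53 (SE 0.19) in Ex_L4-like, 0.38 (SE 0.20) in Ex_L5-like and 0.32 (SE 0.20) in Ex_L6-like nuclei. The classes come from the same 8 mice, so they are not independent. With the library set as a term 0 pairs were called, and with the likelihood ratio test as well 2 were, Nr4a1 in Ex_L2/3-like (FDR 0.152) and Ex_L4-like nuclei (FDR 0.148). That last setting called 1141 of all gene and class pairs (0.932%).

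For Nr4a2 the log2 fold change was above 0 in 4 of 5 classes and -0.18 (SE 0.28) in the Cpne7-led cluster. Nr4a3 was tested in that cluster alone, at -0.54 (SE 0.29), and passed the count filter there through control mice only.

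Nr4a2 in claustrum-like nuclei was at 1038 ± 53.3 CPM in controls and 1208 ± 110 CPM in CUS mice. Controls had 1086, 1058, 962 and 1046 CPM and CUS mice 1332, 1092, 1266 and 1141 CPM, so on this scale the lowest CUS mouse lay just above the highest control. CPM of nuclei leave out the TMM factors of the fit, which were 0.979 for control mouse 1 and 1.06 for CUS mouse 4. With them control mouse 1 lies above CUS mouse 4, so the groups overlap. Without the factors, groups did not overlap for 3.29% of the genes tested in this class. The log2 fold change of 0.22 (SE 0.16) did not pass the test (FDR 0.848). In Ex_L6b-like nuclei the mean was 216 ± 27.3 CPM in controls and 298 ± 35.3 CPM in CUS mice, without overlap, where 3.13% of genes had none. The log2 fold change there was 0.44 (SE 0.18, FDR 0.965). With Nr4a2 left out of clustering these values were 0.22 (FDR 0.852) and 0.42 (FDR 0.96).

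Outside the claustrum-like class, Nr4a2 was at 19.9 ± 6.19 CPM in controls and 25.1 ± 4.77 CPM in CUS mice. With the members kept in the fit, its log2 fold change was 0.32 (SE 0.21, FDR 0.62), and 0.34 (SE 0.24, FDR 0.639) without the Ex_L6b-like class as well. The stress effect in claustrum-like nuclei minus that in other excitatory nuclei, on the log2(CPM + 1) scale, was 0.20 for Nr4a1, -0.12 for Nr4a2 and -0.24 for Nr4a3. None of these passed an exact permutation test over mice (adjusted p = 0.743 for each of the 3). Within the library sets with and without the G barcode the differences were 0.043 and 0.36 for Nr4a1. They were 0.23 and -0.47 for Nr4a2, and -1.29 and 0.82 for Nr4a3. Each set has 2 mice per group. In claustrum-like nuclei a mouse had 3 to 10 UMIs of Nr4a1 and 1 to 11 of Nr4a3, so these directions are uncertain.

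A lower share of claustrum-like nuclei in CUS mice was known from earlier results of these data, so the test here is not independent support for it. The class was 1.51%, 1.71%, 1.44% and 1.63% of nuclei in controls and 1.07%, 1.16%, 1.36% and 1.43% in CUS mice, which did not overlap. The difference was -0.319 percentage points, and the exact permutation test gave p = 0.0286, two-sided, the smallest that 4 against 4 mice allow. Clustered without Nr4a2, it was -0.327 percentage points with the same p. Within the library sets it was -0.177 points with and -0.461 points without the G barcode. The shares rest on 32 to 73 nuclei per control and 34 to 60 per CUS mouse. They depend on how much claustrum each neocortex dissection took, a quantity not measured here. Striatal-like nuclei, which are not of the neocortex, were 9.87%, 7.54%, 8.81% and 8.47% of nuclei in controls and 5.10%, 9.15%, 4.37% and 2.74% in CUS mice, and their part in the result was not tested. With nuclei of at least 1000 genes the p was 0.143.

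Depth per nucleus was matched by thinning each nucleus to 1000 UMIs, which 24745 of 27112 nuclei reached (12613 of control and 12132 of CUS mice). An Nr4a1 UMI was then seen in 3.50% ± 0.865 of control and 5.47% ± 0.891 of CUS nuclei, and without thinning in 8.70% and 11.4%. This did not pass the exact permutation test (adjusted p = 0.171 over 9 tests), and the difference was 1.11 percentage points within the library set with the G barcode and 2.82 in the other. In claustrum-like nuclei thinned shares were 3.09% and 6.68% for Nr4a1 (adjusted p = 0.171, exact permutation test). For Nr4a2 they were 62.2% ± 4.00 and 64.2% ± 1.33 (adjusted p = 0.814, exact permutation test), and 88.0% and 85.8% without thinning. Over all nuclei the thinned share of Nr4a2 was 2.70% in controls and 2.96% in CUS mice, and that of Nr4a3 was 1.24% and 1.42%.

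Lists of other genes that neuronal activity switches on were examined in bulk mPFC nuclei. All gene lists were chosen with earlier results of these data known, and bulk is the contrast that chose the members. Their counts in bulk are thus a description and not independent support. Of 22 early activity-regulated genes (the members not among them), 21 were tested, 6 were called lower in CUS mice, none higher, and 15 were not called, beside 2.13% of all tested genes called lower. Over the list the median was -0.38 on the log2 scale, beside 0.006 over all genes. Cyr61, a secreted matrix protein, fell by 1.77 on the log2 scale. Fos, a subunit of the AP-1 transcription factor, fell by 1.05, and Sik1, a kinase that restrains CREB coactivators, fell by 0.60.

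The later activity-regulated genes went both ways in bulk. Of 12 tested, 5 were called, beside 3.29% of all tested genes in either direction, and 3 of them were lower, namely Crem (-0.33), a CREB relative, Pcsk1 (-0.49), a prohormone convertase, and Homer1 (-0.35), a postsynaptic scaffold. The 2 called higher were the neuropeptide precursor Vgf (0.59) and the neuritin gene Nrn1 (0.34), and the list median was 0.15. Of 18 upstream regulators, the kinase gene Camk2d was called lower (-0.27) and the median was -0.06. None of 7 RXR partners and corepressors was called (median -0.02), and none of the 6 tested Nr4a2 targets known from dopamine neurons (median -0.13).

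None of the 7 claustrum markers other than Nr4a2 was called in bulk. Their median was -0.16, with 5 below 0, and the smallest p belonged to the relaxin receptor gene Rxfp1 at 0.41 (FDR 0.0743), with Gnb4, a G protein subunit, at -0.25 (FDR 0.0844). All 5 tested layer 6b markers were below 0 with none called and a median of -0.19.

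Over all neocortex nuclei no gene of these lists was called. Only 2 early activity-regulated genes passed the count filter, with log2 fold changes of 0.52 for Egr3 and 0.67 for Egr1 (FDR 0.573 for each). Of 7 later genes tested the median was 0.20, with Vgf at 0.53 and Homer1 at 0.33. The 14 upstream regulators had a median of -0.006 and the 4 RXR partners and corepressors one of -0.043. All 4 tested claustrum markers were below 0, with a median of -0.10, beside 0.003 over all genes.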

How the data were processed

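Bulk values are reads per gene, raw counts that the authors deposited after STAR alignment to mm10. Nucleus values are deposited UMI counts per gene and barcode, also made by the authors with mm10 alignment. Groups were taken from the sample labels. Bulk counts were fitted with edgeR 4.0.16 (R 4.3.3) by the quasi-likelihood test after its filter on low counts and TMM normalization, with 18394 genes tested at an FDR of 0.05. Nuclei needed 600 to 5000 genes and at most 5% mitochondrial UMIs, and a doublet score over 0.2 removed 4374 of 31486, which left fewer nuclei than the study kept. They were clustered with Seurat 5.3.0 (2000 variable genes, 50 principal components, resolution 1) and named from markers. UMIs were summed per mouse and class and fitted in the same way at an FDR of 0.2, for genes with summed UMIs over 10% of the nuclei, as in the study's methods but without a batch term, since the labels give no batch, and with the quasi-likelihood test in place of its likelihood ratio test. CPM of nuclei were scaled to the UMI total of each mouse in the set of nuclei, without TMM factors. Single values were compared by exact permutation tests over mice (SciPy 1.17.1), with a pseudocount of 1 on log scales. DESeq2 1.42.0, the likelihood ratio test, other filters, resolutions and depths, a replicate block and leaving out each mouse were alternatives. Fits with the members kept under the count filter, clustering without Nr4a2, permutation tests of CPM and a term for the 2 library sets marked by a barcode of G alone were added after seeing the data. The members and lists were chosen with earlier results of these data known. In each list the text names the members, and up to 3 called genes per direction by p, or the up to 3 smallest p where none was called. The 5 genes most like each member were taken by Pearson correlation over classes. Scripts were tested on simulated data. Promoter sequences are from RefSeq, GRCm38.p6, and all 3 members matched by symbol. Intervals cover counting error only. p-values weigh a group difference against the spread between mice. No protein sequence was used here.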

Additional observations from a re-analysis of the deposited data

Results flagged for a closer look

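In the 38 groups of mice examined for a mouse far from the others, 1 was found, and chance would give about 1 in 20. It was the level of Nr4a3 in Ex_L6b-like nuclei of CUS mouse 1, at 38.3 CPM, while the other CUS mice had 14.6 to 18.3 CPM. The value rests on 6 UMIs.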

How the results depend on the processing

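As a description of the values that chose the members, their log2 fold changes in bulk were -0.20 to -0.17 (Nr4a1), -1.79 to -1.66 (Nr4a2) and -1.22 to -1.04 (Nr4a3) in 5 other settings. The count of genes called in bulk was 1330 by the likelihood ratio test, 1413 by DESeq2 and 238 with the replicate block, and 133 (without control mouse 2) to 1508 (without control mouse 3) when 1 mouse was left out. Over all nuclei the count was 15, 23 and, with no filter on low counts, 312, with the library set as a term 1 and with that term and the likelihood ratio test 213, and 0 to 866 with 1 mouse left out, the highest without CUS mouse 2. Nr4a1 over all nuclei passed the threshold by the likelihood ratio test (0.62), by DESeq2 (0.62), by the likelihood ratio test with the library set as a term (0.61) and with no filter (0.57, FDR 0.00459), and without CUS mouse 2 (FDR 0.114), with a range of 0.51 to 0.79 when 1 mouse was left out. With no filter 1 pair of member and class was called (Nr4a1 in Ex_L2/3-like nuclei, FDR 0.154), 2 by the likelihood ratio test with the library set as a term, and 0 to 2 with 1 mouse left out, the 2 being Nr4a1 in Ex_L2/3-like and Ex_L4-like nuclei without control mouse 3 or without CUS mouse 2. Of all gene and class pairs these settings called 0.0382% (no filter), 0.932% (likelihood ratio test with the term), 0.107% (without control mouse 3) and 1.28% (without CUS mouse 2). The claustrum-like share was -0.308 percentage points with at least 1000 genes per nucleus, and -0.378 to -0.256 without 1 mouse, where p = 0.0571 is the smallest the exact permutation test can give. The thinned share of Nr4a3 in claustrum-like nuclei was -0.137 percentage points without the doublet filter, -0.416 with at least 1000 genes, and -1.15 to 0.627 without 1 mouse. Leaving out 1 mouse gave -0.016 to 0.43 for Nr4a3 over all nuclei and 0.0726 to 0.229 for Nr4a2. Outside the claustrum-like class it gave 0.14 to 0.437 for Nr4a2. For Nr4a1 it gave 0.409 to 1.04 in Ex_L2/3-like, 0.384 to 0.807 in Ex_L4-like and 0.211 to 0.513 in Ex_L6-like nuclei. For Nr4a2 it gave -0.349 to -0.0716 in the Cpne7-led and 0.303 to 1.59 in the Angpt1-led cluster. The thinned share of Nr4a2 ran from -0.0114 to 0.42 percentage points in all nuclei and from -0.277 to 0.321 in excitatory nuclei. That of Nr4a3 in excitatory nuclei ran from -0.0789 to 0.378. With 1 mouse left out, the stress effect in claustrum-like minus other excitatory nuclei ranged from -0.0105 to 0.451 for Nr4a1. It ranged from -0.281 to 0.17 for Nr4a2 and from -0.679 to -0.0115 for Nr4a3. The causes were not tested. When the clustering was run with multithreaded linear algebra, small numerical differences moved nuclei between excitatory classes. Nr4a1 was then not tested in the Cpne7-led cluster, while the claustrum-like and Ex_L6b-like classes held the same number of nuclei. Class values of the other excitatory clusters, the Cpne7-led and Angpt1-led ones among them, are therefore less certain. Mice share only replicate numbers. In bulk, same-numbered mice correlated at 0.025 to 0.146 and mice of different numbers at -0.154 to 0.107. In nuclei these ranges were -0.466 to 0.376 and -0.553 to 0.541, in the same order. With the replicate block the fold changes were -0.19, -1.66 and -1.04 in bulk, and 0.63 for Nr4a1 (FDR 0.49) and 0.14 for Nr4a2 over all nuclei, with no call of a member in nuclei changed. The number of UMIs limits Nr4a3 most, with 56 to 250 per mouse.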

Other observations

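UMIs of Nr4a1 were also counted outside excitatory nuclei, at levels whose share of free RNA was not measured. The highest mean among the compared classes of this kind was in the inhibitory Chst9-led cluster, at 55.6 ± 46.9 CPM, with 2 mice at 0 and 36 UMIs in all. Striatal-like nuclei had 34.7 ± 12.7 CPM (SD, n = 8 mice), with 26.4 ± 9.79 CPM in controls and 43.0 ± 9.82 CPM in CUS mice. Microglia-like nuclei had 39.7 ± 33.2 CPM, from 0 in 2 control mice to 82.0 CPM in a CUS mouse, on 29 UMIs in all. Non-neuronal nuclei together had an Nr4a1 UMI in 2.31% of nuclei, at 11.4 ± 11.3 CPM in controls and 24.2 ± 4.46 CPM in CUS mice.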
